A study of Mus musculus with 33 samples.

Results

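A set of 30 genes of hepatic cholesterol handling was followed, 18 of them enzymes of sterol synthesis, 5 regulators of sterol sensing and control, 4 genes of uptake, transport and esterification, and 3 sterol exporters. They were listed by name as genes of the pathway, with earlier results of these data known, and matched by gene name and Ensembl identifier, giving 30 of the 25988 genes counted. All 30 were in the count table and 29 had enough reads to be tested among 10179 genes. Hepatic mRNA was measured by 3' QuantSeq, which makes sequence from the 3' end of polyadenylated transcripts, in 33 libraries from livers of male C57BL/6J mice that were 13 to 18 weeks old when given virus. The study describes its sequenced mice as short-term and its animals as killed nonfasted in the morning. The labels give no day of sampling. The groups were shChREBP/L-G6pc-/- (n = 9), shSCR/L-G6pc-/- (n = 8), shChREBP/L-G6pc+/+ (n = 8) and shSCR/L-G6pc+/+ (n = 8). Every mouse carried floxed G6pc alleles, the gene of the catalytic subunit of glucose-6-phosphatase, and received tamoxifen and an adeno-associated virus coding for a short hairpin RNA. In L-G6pc-/- mice a tamoxifen-inducible Cre expressed from the albumin locus deleted G6pc in hepatocytes, and L-G6pc+/+ mice were Cre-negative littermates. The hairpin was directed against ChREBP, a glucose-sensitive transcription factor encoded by Mlxipl, or was a scrambled control (shSCR). The deletion is therefore a hepatocyte deletion in the adult and not a whole-body or inherited defect, and the hairpin lowers rather than removes Mlxipl mRNA. Since no label says whether every library came from its own mouse, n counts libraries and p-values measure the spread between them.

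Cholesterol is built from acetyl-CoA through mevalonate, isoprenoid units, squalene and a series of sterol ring intermediates. When sterol in the membrane of the endoplasmic reticulum is low, the escort protein SCAP carries the transcription factor SREBP2 to the Golgi for activation, and activated SREBP2 binds sterol regulatory elements, usually beside NF-Y, in the promoters of the synthesis enzymes. INSIG1 and INSIG2 hold SCAP back when sterol is plentiful. The oxysterol receptor LXR alpha, encoded by Nr1h3, is known to induce the exporters ABCA1, which loads cholesterol onto nascent high-density lipoprotein, and ABCG5 and ABCG8, which together pump sterols into bile.

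The promoter windows of the genes on which the results turn are shown here from RefSeq (GRCm38.p6), each from 250 bases before to 50 bases after an annotated start site, 5′ to 3′ on the strand of the gene. Capitals mark the sterol regulatory element TCACNCCAC and the NF-Y box CCAAT, on either strand. Hmgcs1 is shown because it alone held both, and Mvk and Msmo1 as examples with 5 and 3 NF-Y boxes. Nsdhl and Hsd17b7 held 4 and 3 and are not shown. Cyp51 and Insig2 are shown because their mRNA differed most under shChREBP in L-G6pc+/+ livers, and Abcg8 because its window also holds the start of Abcg5.
Hmgcs1, chr13:119690101-119690400, + strand: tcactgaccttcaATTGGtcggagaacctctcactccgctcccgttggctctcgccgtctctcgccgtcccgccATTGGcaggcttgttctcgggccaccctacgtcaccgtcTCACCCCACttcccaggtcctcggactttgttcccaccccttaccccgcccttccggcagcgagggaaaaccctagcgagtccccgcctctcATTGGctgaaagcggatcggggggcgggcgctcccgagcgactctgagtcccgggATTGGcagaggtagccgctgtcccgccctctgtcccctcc
Mvk, chr5:114444019-114444318, + strand: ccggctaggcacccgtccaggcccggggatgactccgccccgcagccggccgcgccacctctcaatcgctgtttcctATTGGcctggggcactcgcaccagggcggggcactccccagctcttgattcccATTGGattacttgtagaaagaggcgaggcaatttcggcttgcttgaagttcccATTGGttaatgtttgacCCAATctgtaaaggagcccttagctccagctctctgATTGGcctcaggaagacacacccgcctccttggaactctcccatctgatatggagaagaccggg
Cyp51, chr5:4104648-4104947, - strand: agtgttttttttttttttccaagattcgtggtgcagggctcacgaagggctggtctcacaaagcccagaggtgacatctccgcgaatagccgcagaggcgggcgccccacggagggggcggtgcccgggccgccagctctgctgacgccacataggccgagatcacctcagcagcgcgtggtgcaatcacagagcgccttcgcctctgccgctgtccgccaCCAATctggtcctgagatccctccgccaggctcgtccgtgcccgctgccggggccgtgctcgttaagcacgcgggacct
Msmo1, chr8:64733529-64733828, - strand: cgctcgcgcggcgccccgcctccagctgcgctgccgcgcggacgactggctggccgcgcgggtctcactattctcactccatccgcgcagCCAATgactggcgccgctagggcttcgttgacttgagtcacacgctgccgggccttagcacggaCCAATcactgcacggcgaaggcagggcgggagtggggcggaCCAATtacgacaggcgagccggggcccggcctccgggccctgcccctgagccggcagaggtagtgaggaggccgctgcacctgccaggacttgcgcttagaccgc
Insig2, chr1:121332540-121332839, - strand: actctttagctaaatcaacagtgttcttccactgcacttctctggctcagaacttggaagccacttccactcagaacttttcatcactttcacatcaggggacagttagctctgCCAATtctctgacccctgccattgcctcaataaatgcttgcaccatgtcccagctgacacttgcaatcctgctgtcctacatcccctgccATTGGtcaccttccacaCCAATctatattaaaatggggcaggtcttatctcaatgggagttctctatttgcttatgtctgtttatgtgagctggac
Abcg8, chr17:84682871-84683170, + strand: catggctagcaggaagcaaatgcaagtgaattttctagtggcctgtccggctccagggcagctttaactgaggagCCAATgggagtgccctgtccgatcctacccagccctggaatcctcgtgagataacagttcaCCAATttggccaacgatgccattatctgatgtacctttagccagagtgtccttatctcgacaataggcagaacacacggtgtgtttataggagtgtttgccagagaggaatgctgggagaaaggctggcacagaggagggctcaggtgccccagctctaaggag

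A window was found for 24 of the 30 genes. Fdps, Fdft1, Sqle, Stard4, Scarb1 and Soat2 had none in the table used. The sterol regulatory element as spelled was found in 1 of the 24 (4.17%), against 1.22% of 27025 promoters of all genes. In Hmgcs1 it began 137 bases before the start site. Less exact forms of the element were not searched, so the other windows are not shown to lack one. The NF-Y box was found in 19 of 24 (79.2%), including 13 of 15 synthesis genes (86.7%), against 37.9% of all promoters. The E-box CACGTG was found in 5 of 24 (20.8%), namely Hsd17b7, Abca1, Insig1, Sc5d and Scap, against 7.24%. The exact LXR repeat, AGGTCA repeated with 4 bases between, was found in none of the 24 and in 0.0111% of all promoters (3 of 27025). An exact match is so rare that its absence from 24 windows says nothing about less exact repeats, which were not searched. None of these motifs overlapped another in the 6 windows shown. By the first window listed for each, Abcg5 and Abcg8 start 110 bases apart on opposite strands, so that these windows share 209 bases. For genes with several windows the shares refer to the window listed first. Insig2 has 3 annotated starts, and Abcg8, Dhcr7, Nr1h3, Pmvk and Scap also have more than 1. Reads from the 3' end cannot tell such starts apart.

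Total counts ran from 1497843 to 3546852 per library. Mlxipl mRNA fell in the shChREBP groups, with a log2 fold change of -0.57 ± 0.13 (SE) in L-G6pc-/- and -0.55 ± 0.13 in L-G6pc+/+ livers (adjusted p = 0.00417 and 0.0129). Pklr, the liver pyruvate kinase gene and a known ChREBP target, fell by 0.58 ± 0.16 and 0.84 ± 0.17 on the log2 scale in the same comparisons (adjusted p = 0.0169 and 0.00347). G6pc reads were not lower in L-G6pc-/- livers and so do not check the deletion: the log2 fold change over L-G6pc+/+ livers was 0.56 ± 0.29 under shSCR and 0.61 ± 0.28 under shChREBP (adjusted p = 0.368 and 0.165), and the groups overlapped. Whether 3' reads of the deleted allele are counted was not tested. In shChREBP/L-G6pc-/- livers, 4 libraries (s29, s30, s32, s33) stood apart over all genes, at 26.8 to 35.6 on the principal component with the most variance (14.7%), against -29.1 to 21.2 for the other 29 libraries. Their Mlxipl level was 216 to 359 CPM (counts scaled to the size of the library with TMM factors), against 441 to 500 CPM in the other 5 libraries of that group. In bulk tissue, fewer cells of a type and less RNA per cell cannot be told apart. The summed level of 7 hepatocyte markers was 14100 to 23600 CPM in shChREBP/L-G6pc-/-, 20400 to 26200 CPM in shSCR/L-G6pc-/-, 22300 to 33800 CPM in shChREBP/L-G6pc+/+ and 29100 to 32000 CPM in shSCR/L-G6pc+/+ livers (2 of the 7 fell under shChREBP in L-G6pc-/- livers and 4 were lower in shChREBP/L-G6pc-/- than in shSCR/L-G6pc+/+ livers). The 10 Kupffer cell and macrophage markers summed to 1440 to 2300, 911 to 2210, 916 to 2650 and 955 to 1670 CPM in the same order of groups, and 3 of the 10 were higher in shChREBP/L-G6pc-/- livers than in either shSCR group. In that order, 8 stellate cell markers summed to 313 to 472, 253 to 469, 341 to 442 and 296 to 435 CPM, 8 sinusoidal endothelial markers to 319 to 392, 261 to 365, 341 to 510 and 307 to 406 CPM, and 6 cholangiocyte markers, of which 4 were too low to be tested, to 32.1 to 68.1, 22.2 to 58.8, 26.3 to 69.6 and 18.6 to 53.9 CPM. No marker was at 0 in all libraries of a group. The part of these cells in the results below was not tested.

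Under shChREBP, Hmgcs1, Fdft1, Cyp51, Ebp, Sc5d and Insig2 fell in L-G6pc+/+ livers, whereas in L-G6pc-/- livers Tm7sf2, Scap, Stard4 and Lcat fell and Abcg5 and Abcg8 rose. A gene passed when its adjusted p, by edgeR's quasi-likelihood test with Benjamini-Hochberg adjustment over all tested genes, was under 0.05. In L-G6pc+/+ livers 6 of the 29 tested genes passed, all lower under shChREBP, while 3.23% of all genes passed as lower and 2.16% as higher. Of the 17 synthesis enzymes tested, 5 were lower and none higher, all 17 log2 fold changes were negative, and their median was -0.51, against 0.03 over all genes. Of all 10179 genes, 4738 had a negative value. The enzymes share their libraries and are not independent of each other. In L-G6pc-/- livers 4 genes were lower and 2 higher under shChREBP, while 4.23% of all genes passed as lower and 3.33% as higher. Only 1 of these 6 was a synthesis enzyme. Of the 17 enzymes, 12 had a negative value, against 4992 of all 10179 genes. The median over the 17 was -0.15, against 0.01 over all genes. These comparisons are not shown to differ: the difference of the shChREBP effects between genotypes passed in none of the 29 genes by edgeR, with 7 of 29 at an unadjusted p under 0.05 against 1226 of all 10179 genes, while 0.0589% of all genes passed as higher and 0.0196% as lower. By DESeq2 Cyp51 passed in this difference, with a log2 value of 0.85 and an adjusted p of 0.0322, whereas limma-voom called none.

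For G6pc deficiency under shSCR, Msmo1 alone of the 29 passed, at a lower level in L-G6pc-/- livers, and 1.03% of all genes passed as lower and 2.2% as higher, so that the count is close to that over all genes. Of the 17 synthesis enzymes, 15 had a negative log2 fold change and 6 an unadjusted p under 0.05. Of all 10179 genes, 5056 had a negative value and 1486 an unadjusted p under 0.05. The median over the 17 was -0.26, against 0.002 over all genes. The enzymes were measured in the same libraries, so they are not independent of each other. Under shChREBP, 2 genes were higher in L-G6pc-/- livers and 4 were lower, while 6.14% of all genes passed as higher and 4.9% as lower. Between shChREBP/L-G6pc-/- and shSCR/L-G6pc+/+ livers, 13 of 29 genes were lower and 1 was higher, while 6.37% of all genes passed as lower and 6.87% as higher. The comparisons share libraries, so their values stand side by side and are not independent of each other.

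**Figure D1:**
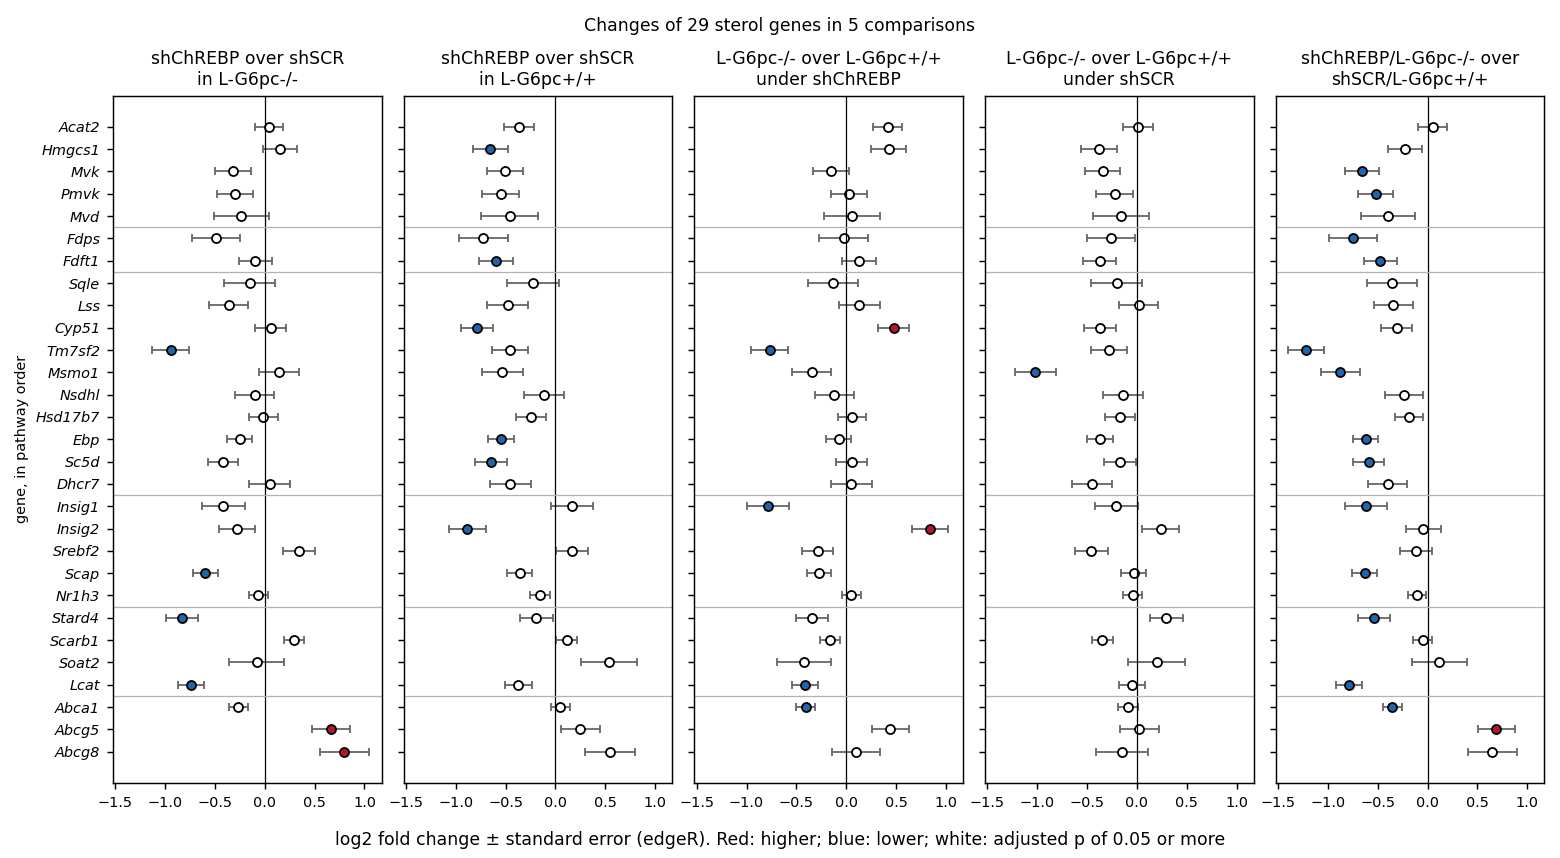
Log2 fold changes with their standard errors (x axis) for the 29 tested genes in pathway order (y axis), in 5 comparisons. Blue points passed as lower, red points as higher and white points did not pass. The points of all 17 synthesis enzymes, from Acat2 to Dhcr7, lie left of 0 for shChREBP in L-G6pc+/+ livers, and Abcg5 and Abcg8 are the red points for shChREBP in L-G6pc-/- livers.

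Among the 5 mevalonate genes, Hmgcs1 fell under shChREBP in L-G6pc+/+ livers. Hmgcs1 makes the HMG-CoA that enters the mevalonate pathway. Its level was 385, 620 and 739 CPM (lowest, median and highest library) in shChREBP/L-G6pc+/+ livers, against 406, 889 and 1590 CPM in shSCR/L-G6pc+/+ livers. In L-G6pc-/- livers it was 623, 721 and 1060 CPM with shChREBP, against 458, 730 and 991 CPM with shSCR. The fall in L-G6pc+/+ livers was 0.65 ± 0.18 in log2 units (adjusted p = 0.027), all 8 shChREBP libraries lay below the shSCR median, and the groups overlapped with the shSCR library s8 at 406 CPM. Hmgcs1 did not pass in L-G6pc-/- livers, with a positive log2 fold change of 0.15 ± 0.17 (adjusted p = 0.658).

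Mvk phosphorylates mevalonate, and Pmvk adds the next phosphate. Mvk was at 10.4, 13.7 and 19.5 CPM in shChREBP/L-G6pc-/-, 10.2, 18.4 and 23.4 CPM in shSCR/L-G6pc-/-, 11.8, 15.3 and 22.3 CPM in shChREBP/L-G6pc+/+ and 16.7, 20.4 and 39.3 CPM in shSCR/L-G6pc+/+ livers. Pmvk was at 45.3, 70.5 and 96 CPM, 43.1, 90.3 and 124 CPM, 35.7, 71.5 and 88.7 CPM, and 45.4, 113 and 128 CPM in these groups, in the same order. Both passed only between shChREBP/L-G6pc-/- and shSCR/L-G6pc+/+ livers, Mvk with a log2 fold change of -0.66 ± 0.17 (adjusted p = 0.0075) and Pmvk with -0.52 ± 0.18 (adjusted p = 0.0458). All 9 shChREBP/L-G6pc-/- libraries lay below the shSCR/L-G6pc+/+ median for either gene, and the groups overlapped. Both genes missed the threshold for shChREBP in L-G6pc+/+ livers, Mvk at -0.51 ± 0.18 and Pmvk at -0.55 ± 0.19 (adjusted p = 0.0826 and 0.0728). Acat2, the cytosolic thiolase of the opening step, and Mvd, which decarboxylates the last mevalonate intermediate, passed in no comparison. Over all libraries Acat2 ranged between 55.2 and 158 CPM and Mvd between 24.1 and 177 CPM.

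Of the 3 genes that lead from isoprenoid units to squalene, Idi1, the isopentenyl isomerase, was too low to be tested. It had 0 to 8 reads per library in shChREBP/L-G6pc-/-, 2 to 9 in shSCR/L-G6pc-/-, 1 to 8 in shChREBP/L-G6pc+/+ and 4 to 9 in shSCR/L-G6pc+/+ livers, so that a difference was not detectable at this depth. Fdps, which makes farnesyl diphosphate, was at 15.3, 19.1 and 37.8 CPM in shChREBP/L-G6pc-/-, 13.9, 33.5 and 46.8 CPM in shSCR/L-G6pc-/-, 9.2, 24.5 and 42.3 CPM in shChREBP/L-G6pc+/+ and 14.5, 40.9 and 60.5 CPM in shSCR/L-G6pc+/+ livers. It passed between shChREBP/L-G6pc-/- and shSCR/L-G6pc+/+ livers only, with a log2 fold change of -0.75 ± 0.24 (adjusted p = 0.0295) and no shChREBP/L-G6pc-/- library below the lowest of the other group. Its log2 fold change for shChREBP in L-G6pc+/+ livers was -0.72 ± 0.25 (adjusted p = 0.0768), which missed the threshold. Fdft1, squalene synthase and the entry to sterol as opposed to other isoprenoids, was at 21.7, 34.6 and 45.4 CPM in shChREBP/L-G6pc-/-, 24.8, 33 and 57.3 CPM in shSCR/L-G6pc-/-, 24.4, 30.3 and 51.6 CPM in shChREBP/L-G6pc+/+ and 30.4, 48.5 and 69.9 CPM in shSCR/L-G6pc+/+ livers. It fell by 0.60 ± 0.17 on the log2 scale under shChREBP in L-G6pc+/+ livers (adjusted p = 0.0318) and was lower by -0.47 ± 0.16 in shChREBP/L-G6pc-/- than in shSCR/L-G6pc+/+ livers (adjusted p = 0.0448). An exon of Fdft1 overlaps an exon of Ctsb on the opposite strand, and the sources do not state whether reads were counted by strand, so reads of the 2 genes may not be separated. The same holds for Hmgcs1, Idi1, Lss and Scap, each with an opposite-strand partner, while Fdps and Nr1h3 overlap another gene on their own strand.

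Of the 10 sterol ring genes tested, 5 passed in at least 1 comparison. Cyp51, the lanosterol demethylase, was at 255, 295 and 342 CPM in shChREBP/L-G6pc-/-, 166, 275 and 449 CPM in shSCR/L-G6pc-/-, 128, 216 and 274 CPM in shChREBP/L-G6pc+/+ and 229, 372 and 470 CPM in shSCR/L-G6pc+/+ livers. shChREBP lowered it by a log2 fold change of -0.79 ± 0.16 in L-G6pc+/+ livers (adjusted p = 0.00347), where 5 of 8 shChREBP libraries lay below every shSCR library. For L-G6pc-/- livers that value was 0.06 ± 0.15 (adjusted p = 0.863). Under shChREBP its level was higher in L-G6pc-/- than in L-G6pc+/+ livers (0.47 ± 0.16, adjusted p = 0.0421), with 6 of 9 libraries above every L-G6pc+/+ library. The difference of the shChREBP effects between genotypes was 0.85 ± 0.22 on the log2 scale, with an unadjusted p of 0.000508 and an adjusted p of 0.117. Cyp51 shares exon sequence with Akap9 on the opposite strand.

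Msmo1 encodes the methyl oxidase that follows in the removal of methyl groups from the ring. It was at 99.1, 117 and 165 CPM in shChREBP/L-G6pc-/-, 51.5, 115 and 172 CPM in shSCR/L-G6pc-/-, 81.7, 153 and 265 CPM in shChREBP/L-G6pc+/+ and 126, 238 and 343 CPM in shSCR/L-G6pc+/+ livers. With shSCR it was 0.494 times as high in L-G6pc-/- as in L-G6pc+/+ livers, a log2 fold change of -1.02 ± 0.20 (adjusted p = 0.00158). All 8 L-G6pc-/- libraries lay below the L-G6pc+/+ median and 5 lay below every L-G6pc+/+ library. It was also lower in shChREBP/L-G6pc-/- than in shSCR/L-G6pc+/+ livers (-0.88 ± 0.20, adjusted p = 0.00198). The value for shChREBP was 0.14 ± 0.20 in L-G6pc-/- livers (adjusted p = 0.736). In L-G6pc+/+ livers it was -0.53 ± 0.20 (adjusted p = 0.108), which missed the threshold, with 7 of 8 shChREBP libraries below the shSCR median. The difference of the shChREBP effects between genotypes did not pass (0.67 ± 0.28, adjusted p = 0.322).

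Ebp, the sterol isomerase, and Sc5d, the desaturase after it, act late in the pathway. Ebp was at 458, 686 and 953 CPM in shChREBP/L-G6pc-/-, 581, 838 and 1030 CPM in shSCR/L-G6pc-/-, 606, 687 and 971 CPM in shChREBP/L-G6pc+/+ and 770, 1070 and 1360 CPM in shSCR/L-G6pc+/+ livers. Sc5d was at 544, 703 and 1100 CPM, 543, 929 and 1350 CPM, 579, 672 and 1160 CPM, and 933, 1100 and 1400 CPM in these groups, in the same order. Both had their highest median in shSCR/L-G6pc+/+ livers, and the groups overlapped. Under shChREBP in L-G6pc+/+ livers, Ebp changed by -0.55 ± 0.13 (adjusted p = 0.0114) and Sc5d by -0.65 ± 0.16 (adjusted p = 0.0146) on the log2 scale, with 6 and 7 of 8 shChREBP libraries below every shSCR library. Sc5d in the remaining shChREBP/L-G6pc+/+ library, s12, was 1160 CPM. Both were also lower in shChREBP/L-G6pc-/- than in shSCR/L-G6pc+/+ livers, at -0.62 ± 0.13 (adjusted p = 0.00075) and -0.59 ± 0.15 (adjusted p = 0.00798). For shChREBP in L-G6pc-/- livers the values were -0.25 ± 0.13 for Ebp (adjusted p = 0.227) and -0.42 ± 0.15 for Sc5d (adjusted p = 0.0856), which missed the threshold.

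Tm7sf2, a reductase of the ring steps, was the synthesis gene with the lowest log2 fold change for shChREBP in L-G6pc-/- livers. It was at 8.84, 21.7 and 31.4 CPM in shChREBP/L-G6pc-/-, 32.4, 36.8 and 58.4 CPM in shSCR/L-G6pc-/-, 19.1, 32.2 and 53.3 CPM in shChREBP/L-G6pc+/+ and 35.5, 48.3 and 61.6 CPM in shSCR/L-G6pc+/+ livers. The shChREBP/L-G6pc-/- libraries overlapped neither group with shSCR. The log2 fold change was -0.94 ± 0.18 against shSCR/L-G6pc-/- (adjusted p = 0.000887), -1.22 ± 0.18 against shSCR/L-G6pc+/+ (adjusted p = 9.86e-06) and -0.77 ± 0.18 against shChREBP/L-G6pc+/+ livers (adjusted p = 0.00505). For shChREBP in L-G6pc+/+ livers it was -0.455 ± 0.18 (adjusted p = 0.123), which missed the threshold, with 6 of 8 shChREBP libraries below every shSCR library. The difference of the shChREBP effects between genotypes did not pass (-0.489, adjusted p = 0.455). Exons of Tm7sf2 overlap those of Vps51 on the same strand. Within shChREBP/L-G6pc-/- the libraries s29, s30, s32 and s33 had 8.84 to 18.3 CPM and the other 5 had 21.7 to 31.4 CPM.

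The other 5 ring genes passed in no comparison. Sqle, the epoxidase that precedes ring closure, ranged between 21.1 and 150 CPM over all libraries. Lss, which closes the ring, ranged between 5.41 and 17.8 CPM, so that low counts limit its precision. Nsdhl and Hsd17b7, which act with Msmo1, ranged between 17.9 and 63.4 CPM and between 41.2 and 107 CPM. Dhcr7, a reductase at the end of the pathway, ranged between 8.43 and 43.9 CPM.

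**Figure D2:**
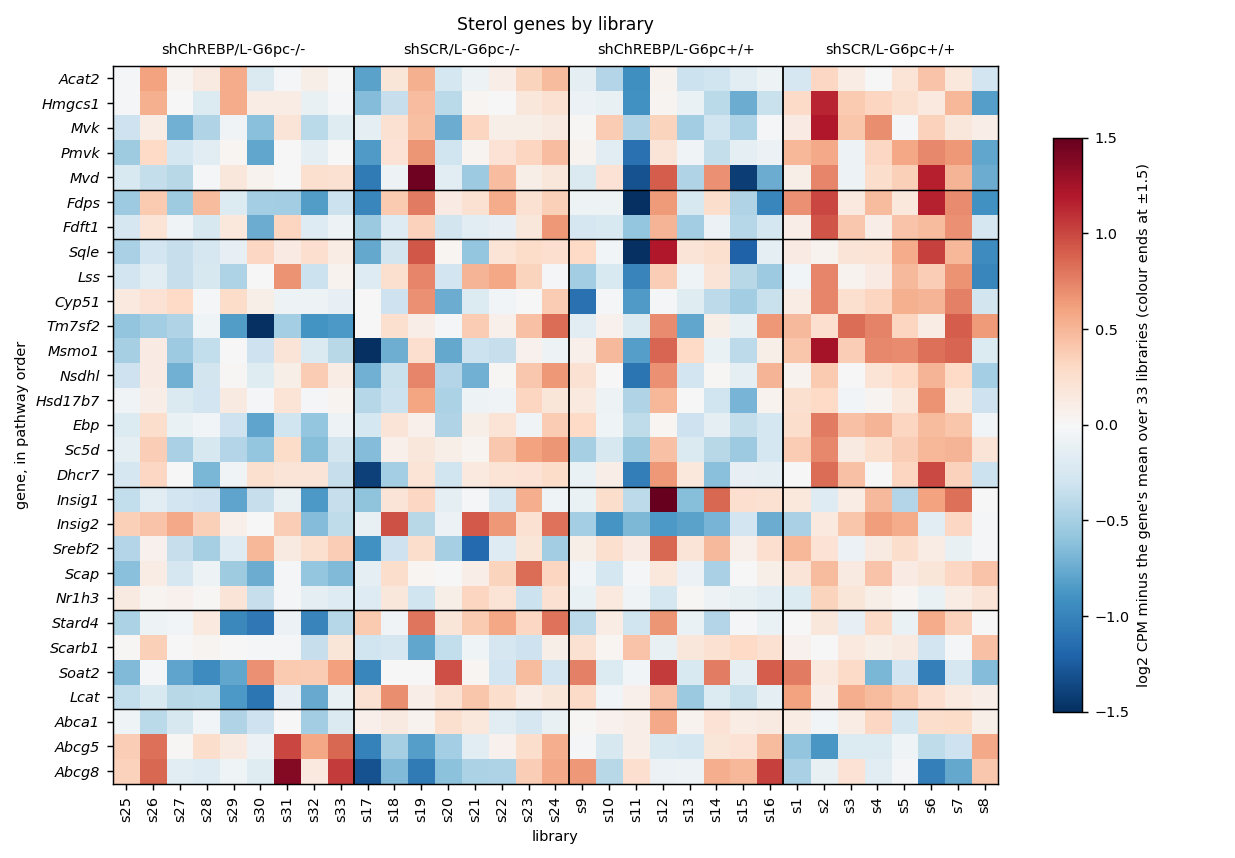
Level of the 29 tested genes (rows, in pathway order) in each of the 33 libraries (columns, by group), as log2 CPM minus the gene's mean over all libraries. Rows above the line before Insig1 are synthesis enzymes, which are red together in s2, s6 and s19 and blue in s11 and s15.

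The same libraries were often at the ends of their group for many synthesis enzymes, a pattern seen after the values were known and given without a test. In shChREBP/L-G6pc-/- livers no library was the lowest or the highest of its group for more than 5 of the 17 enzymes, whereas in shSCR/L-G6pc-/- livers s17 was the lowest for 11 and s19 the highest for 12. In shChREBP/L-G6pc+/+ livers s11 was the lowest for 12 and s12 the highest for 14. In shSCR/L-G6pc+/+ livers s8 was the lowest for 14, and s2 and s6 were the highest for 7 and 8. Among the 12 other genes tested the picture was mixed. Library s12 was the highest of its group for 7, s17 the lowest for 5 and s24 the highest for 4. By contrast, s8 and s11 were the lowest for 0. Libraries s19 and s6 were each the highest for 1 and the lowest for 3, and s2 was the highest for 2 and the lowest for 2. The genes were measured in the same libraries and are not independent of each other, and the cause of the pattern was not tested. The CPM of the 17 enzymes summed to 3176 ± 469.1 in shChREBP/L-G6pc-/-, 3528 ± 746.8 in shSCR/L-G6pc-/-, 2921 ± 593.1 in shChREBP/L-G6pc+/+ and 4384 ± 852.9 in shSCR/L-G6pc+/+ livers (mean ± SD), and the 4 genes with most reads made up 76.5 to 79.4% of the mean sum in each group. The highest library of a group had 1.56 to 2.04 times the sum of its lowest.

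**Figure D3:**
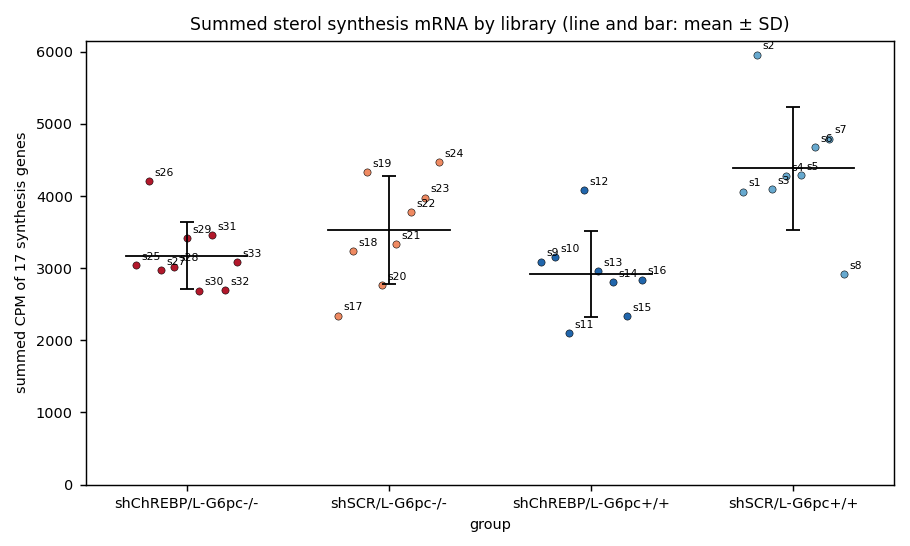
Summed CPM of the 17 tested synthesis enzymes (y axis) by group (x axis), 1 point per library with its name, and lines and bars for mean ± SD. In shChREBP/L-G6pc+/+ livers the libraries lie between 2101 and 4081 CPM, and in shSCR/L-G6pc+/+ livers 7 of 8 lie between 4062 and 5961 CPM and s8 lies at 2920 CPM.

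Among the sensing and control genes, Insig2 was higher and Insig1 lower in L-G6pc-/- than in L-G6pc+/+ livers under shChREBP. INSIG1 and INSIG2 both retain SCAP, and Insig1 is itself a target of SREBP, whereas Insig2 is not known as one. Insig2 was at 364, 731 and 850 CPM in shChREBP/L-G6pc-/-, 427, 783 and 1110 CPM in shSCR/L-G6pc-/-, 308, 347 and 470 CPM in shChREBP/L-G6pc+/+ and 407, 672 and 882 CPM in shSCR/L-G6pc+/+ livers. shChREBP/L-G6pc+/+ livers were the low group. There shChREBP lowered Insig2 by a log2 fold change of -0.89 ± 0.18 (adjusted p = 0.00396), with 7 of 8 libraries below every shSCR library. With shChREBP, Insig2 was 1.79 times as high in L-G6pc-/- as in L-G6pc+/+ livers, a log2 fold change of 0.84 ± 0.18 (adjusted p = 0.00186), with 7 of 9 libraries above every L-G6pc+/+ library. The libraries s29, s30, s32 and s33 had 364 to 604 CPM and the other 5 of their group 731 to 850 CPM, and without the 4 the difference was 1.10 ± 0.19 (adjusted p = 0.000361). In L-G6pc-/- livers shChREBP changed Insig2 by -0.28 ± 0.18 (adjusted p = 0.362).

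Insig1 was at 28.2, 40.2 and 47.4 CPM in shChREBP/L-G6pc-/-, 33.7, 49.9 and 74.8 CPM in shSCR/L-G6pc-/-, 33, 60.5 and 149 CPM in shChREBP/L-G6pc+/+ and 37.8, 56.4 and 90.8 CPM in shSCR/L-G6pc+/+ livers. Its median was lowest in shChREBP/L-G6pc-/- livers, which overlapped every other group. Under shChREBP its log2 fold change for L-G6pc-/- over L-G6pc+/+ livers was -0.78 ± 0.21 (adjusted p = 0.0115), and against shSCR/L-G6pc+/+ livers it was -0.62 ± 0.21 (adjusted p = 0.0418). Without library s12, at 149 CPM, the log2 fold change between genotypes was -0.52 (adjusted p = 0.0622).

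Scap was at 47.1, 54.3 and 85.3 CPM in shChREBP/L-G6pc-/-, 71.9, 89.4 and 141 CPM in shSCR/L-G6pc-/-, 56.3, 76.9 and 88.1 CPM in shChREBP/L-G6pc+/+ and 85.7, 93.5 and 109 CPM in shSCR/L-G6pc+/+ livers. All 9 shChREBP/L-G6pc-/- libraries lay below every shSCR/L-G6pc+/+ library. Its log2 fold change for shChREBP in L-G6pc-/- livers was -0.60 ± 0.12 (adjusted p = 0.00181), and against shSCR/L-G6pc+/+ livers -0.63 ± 0.12 (adjusted p = 0.000457). For shChREBP in L-G6pc+/+ livers it was -0.36 ± 0.13 (adjusted p = 0.0857), which missed the threshold. Srebf2, the gene of SREBP2, and Nr1h3 passed in no comparison, and ranged between 37.3 and 152 CPM and between 132 and 212 CPM over all libraries.

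**Figure D4:**
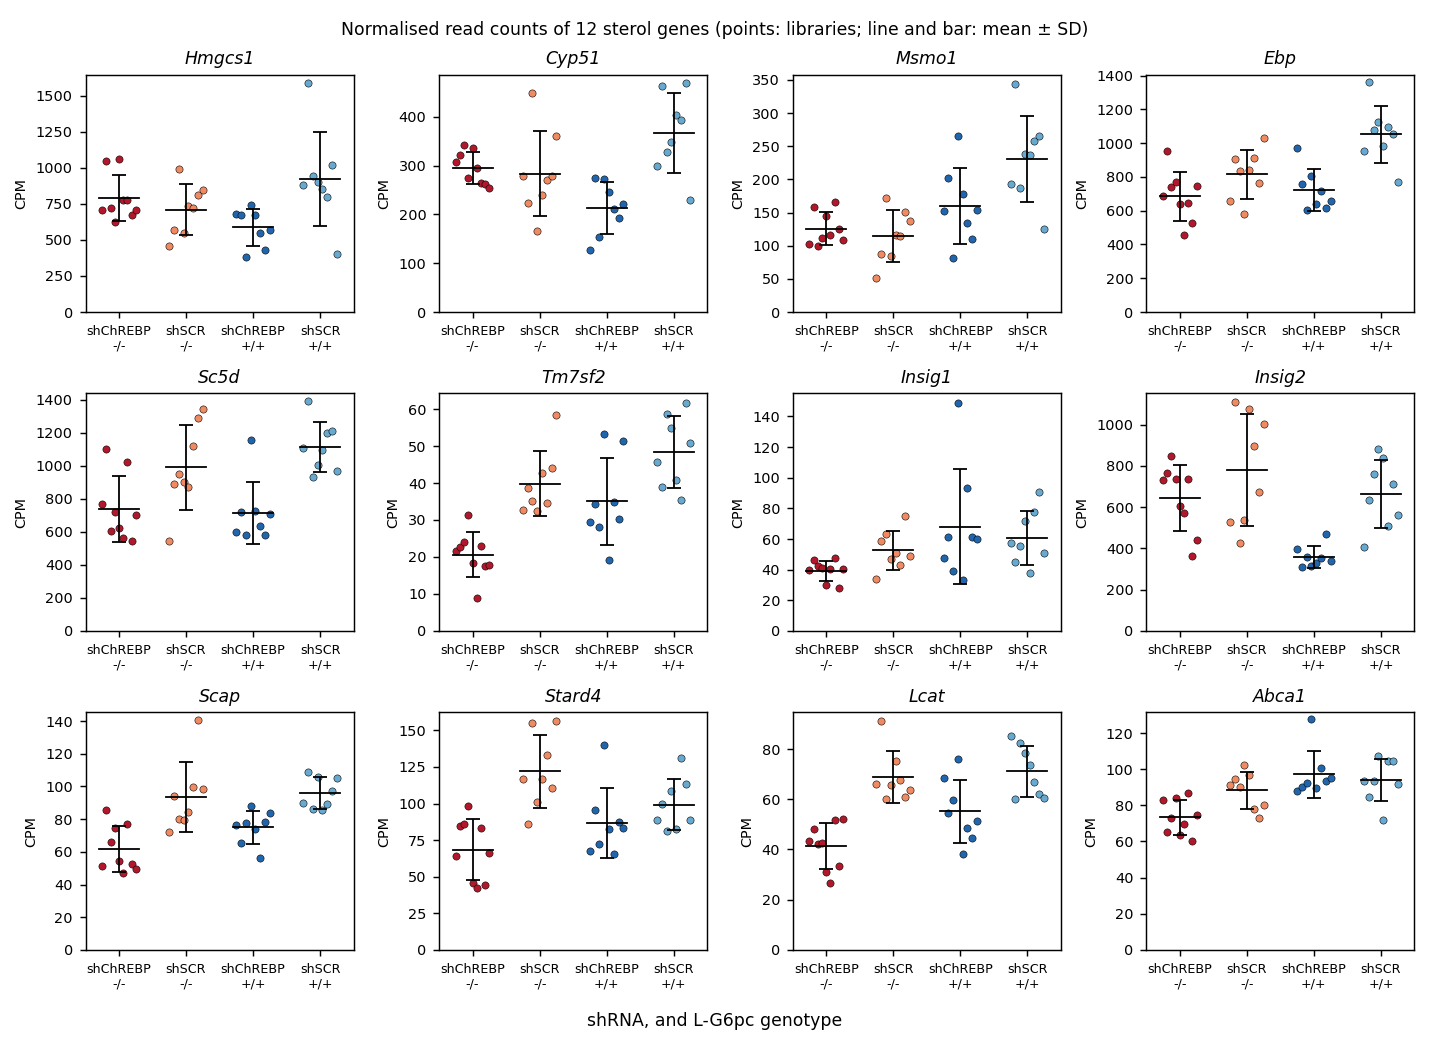
CPM (y axis, from 0) of 12 sterol genes in the 4 groups (x axis), 1 point per library, with lines and bars for mean ± SD. Insig2 is lowest in shChREBP/L-G6pc+/+ livers, between 308 and 470 CPM, whereas Tm7sf2, Scap, Stard4 and Lcat are lowest in shChREBP/L-G6pc-/- livers.

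Of the 4 genes of uptake, transport and esterification, Stard4 and Lcat fell under shChREBP in L-G6pc-/- livers. Stard4, a cytosolic carrier of cholesterol, was at 42.3, 66.3 and 98.6 CPM in shChREBP/L-G6pc-/-, 86, 117 and 157 CPM in shSCR/L-G6pc-/-, 65.5, 83.1 and 140 CPM in shChREBP/L-G6pc+/+ and 81.3, 94.5 and 131 CPM in shSCR/L-G6pc+/+ livers. The shChREBP libraries were low in L-G6pc-/- livers, 7 of 9 below every shSCR library, and the groups overlapped. The log2 fold change was -0.83 ± 0.16 (adjusted p = 0.000842), and against shSCR/L-G6pc+/+ livers it was -0.54 ± 0.16 (adjusted p = 0.02). For shChREBP in L-G6pc+/+ livers it was -0.193 ± 0.165 (adjusted p = 0.529). The libraries s29, s30, s32 and s33 had 42.3 to 66.3 CPM and the other 5 of their group 64.1 to 98.6 CPM. Without the 4 the value against shSCR/L-G6pc+/+ livers was -0.25 ± 0.16 (adjusted p = 0.489).

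Lcat, the hepatocyte-secreted enzyme that esterifies cholesterol on high-density lipoprotein, was at 26.5, 42.5 and 52.2 CPM in shChREBP/L-G6pc-/-, 60.1, 65.9 and 91.3 CPM in shSCR/L-G6pc-/-, 38.1, 52.9 and 75.9 CPM in shChREBP/L-G6pc+/+ and 60.3, 70.4 and 85.2 CPM in shSCR/L-G6pc+/+ livers. All 9 shChREBP/L-G6pc-/- libraries lay below every library of both shSCR groups. Its level was 0.599 times that of shSCR/L-G6pc-/- livers, a log2 fold change of -0.74 ± 0.13 (adjusted p = 0.000297), and -0.79 ± 0.13 against shSCR/L-G6pc+/+ livers (adjusted p = 5.76e-05). Under shChREBP it was also lower in L-G6pc-/- than in L-G6pc+/+ livers (-0.42 ± 0.13, adjusted p = 0.0348). For shChREBP in L-G6pc+/+ livers the value was -0.37 ± 0.13 (adjusted p = 0.0883). Of the 7 hepatocyte markers, 2 were lower and none higher for shChREBP in L-G6pc-/- livers, 4 lower and none higher against shSCR/L-G6pc+/+ livers, and 1 lower and 1 higher between genotypes under shChREBP. Alb, the marker that was lower in the last of these, was also lower for G6pc deficiency under shSCR (-0.79 ± 0.12, adjusted p = 3.68e-05). It was the only 1 of the 7 that passed there, and the median log2 fold change of the 7 was -0.08. Lcat was at -0.05 ± 0.13 (adjusted p = 0.913) in that comparison. The part of hepatocyte content in Lcat was not tested. Scarb1, the receptor for high-density lipoprotein, and Soat2, which esterifies cholesterol inside hepatocytes, passed in no comparison. Scarb1 ranged between 74.6 and 174 CPM over all libraries and Soat2 between 3.85 and 16.2 CPM.

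The biliary exporters rose under shChREBP in L-G6pc-/- livers. Abcg5 was at 56, 76.3 and 119 CPM in shChREBP/L-G6pc-/-, 29.2, 47.6 and 86.5 CPM in shSCR/L-G6pc-/-, 49.4, 60.7 and 82.5 CPM in shChREBP/L-G6pc+/+ and 32.4, 49.6 and 88.2 CPM in shSCR/L-G6pc+/+ livers. Abcg8 was at 39.8, 50.5 and 118 CPM, 18.3, 31.1 and 67.2 CPM, 34.2, 59.2 and 92.4 CPM, and 22.4, 41.4 and 60 CPM in these groups, in the same order. All 9 shChREBP/L-G6pc-/- libraries lay above the shSCR/L-G6pc-/- median for either gene, and the groups overlapped. Abcg5 was 1.59 times as high, with a log2 fold change of 0.67 ± 0.19 (adjusted p = 0.0225), and Abcg8 1.74 times as high, with 0.80 ± 0.25 (adjusted p = 0.0412). Abcg5 was also higher than in shSCR/L-G6pc+/+ livers (0.69 ± 0.19, adjusted p = 0.0107), where the value of Abcg8 was 0.65 ± 0.25 (adjusted p = 0.0758). For shChREBP in L-G6pc+/+ livers the values were 0.25 ± 0.19 for Abcg5 (adjusted p = 0.483) and 0.55 ± 0.25 for Abcg8 (adjusted p = 0.198). The 2 genes overlap in exons on opposite strands, so that their reads may not be separated and they are not independent of each other.

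**Figure D5:**
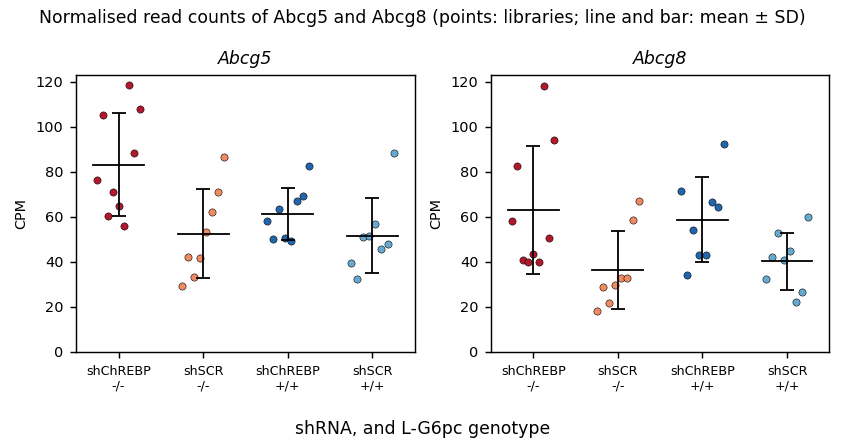
CPM (y axis, from 0) of Abcg5 and Abcg8 in the 4 groups (x axis), 1 point per library, with lines and bars for mean ± SD. The means are 83.2 and 63 CPM in shChREBP/L-G6pc-/- livers, against 52.4 and 36.2 CPM in shSCR/L-G6pc-/- livers.

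Abca1, the exporter to high-density lipoprotein, was lower in shChREBP/L-G6pc-/- livers than in both L-G6pc+/+ groups. It was at 60.3, 73.2 and 87 CPM in shChREBP/L-G6pc-/-, 73, 90.7 and 102 CPM in shSCR/L-G6pc-/-, 88, 93.1 and 128 CPM in shChREBP/L-G6pc+/+ and 72, 93.6 and 107 CPM in shSCR/L-G6pc+/+ livers. With shChREBP all 9 L-G6pc-/- libraries lay below every L-G6pc+/+ library, by margins as small as that between 87 and 88 CPM. The log2 fold change was -0.40 ± 0.10 there (adjusted p = 0.00424) and -0.35 ± 0.10 against shSCR/L-G6pc+/+ livers (adjusted p = 0.00955). For shChREBP in L-G6pc-/- livers it was -0.26 ± 0.10 (adjusted p = 0.0803), which missed the threshold.

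Other genes of sterol metabolism were followed through a list of 38, of which 37 were tested. Under shChREBP in L-G6pc+/+ livers 5 of 37 were lower (3.23% of all genes) and none higher, and in L-G6pc-/- livers 3 were lower (4.23% of all genes). G6pc deficiency raised 1 and lowered none under shSCR (2.2% and 1.03% of all genes), and raised 2 and lowered 2 under shChREBP (6.14% and 4.9%), which is close to the shares over all genes. Between shChREBP/L-G6pc-/- and shSCR/L-G6pc+/+ livers 5 were lower and 1 higher (6.37% and 6.87% of all genes). Acly, which supplies cytosolic acetyl-CoA from citrate and is a known ChREBP target, was at 151, 246 and 362 CPM in shChREBP/L-G6pc-/-, 495, 629 and 788 CPM in shSCR/L-G6pc-/-, 67.3, 95.4 and 232 CPM in shChREBP/L-G6pc+/+ and 100, 172 and 346 CPM in shSCR/L-G6pc+/+ livers. shSCR/L-G6pc-/- livers were above every other group without overlap. Its log2 fold change was 1.75 ± 0.22 for G6pc deficiency under shSCR (adjusted p = 9.13e-07) and 1.20 ± 0.21 under shChREBP (adjusted p = 0.000248), and -1.33 ± 0.21 and -0.77 ± 0.22 for shChREBP in L-G6pc-/- and L-G6pc+/+ livers (adjusted p = 6.95e-05 and 0.0308). Acss2, which makes acetyl-CoA from acetate, fell under shChREBP in both genotypes (-1.06 ± 0.23 in L-G6pc-/- and -0.84 ± 0.24 in L-G6pc+/+ livers, adjusted p = 0.00288 and 0.0321).

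Cyb5b, of the cytochrome b5 family of electron donors, fell under shChREBP by 0.52 ± 0.10 in L-G6pc-/- and 0.36 ± 0.10 in L-G6pc+/+ livers in log2 units (adjusted p = 0.00106 and 0.037). Cyb5a, of the same family, was lower in L-G6pc-/- than in L-G6pc+/+ livers under shChREBP (-0.44 ± 0.10, adjusted p = 0.00322). Fnta, the shared alpha subunit of the protein prenyltransferases, and Pltp, the phospholipid transfer protein, fell under shChREBP in L-G6pc+/+ livers (-0.68 ± 0.17 and -0.89 ± 0.21, adjusted p = 0.0141 and 0.00894). Lipa, the lysosomal acid lipase, was higher and Lrp1, a large endocytic lipoprotein receptor, lower in L-G6pc-/- than in L-G6pc+/+ livers under shChREBP (0.32 ± 0.08 and -0.42 ± 0.10, adjusted p = 0.00907 and 0.00344). Npc2, the soluble sterol carrier of the lysosome, was higher in shChREBP/L-G6pc-/- than in shSCR/L-G6pc+/+ livers (0.42 ± 0.12, adjusted p = 0.0112).

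Fewer genes passed when s29, s30, s32 and s33 were left out. Without them 1 gene passed for shChREBP in L-G6pc-/- livers, namely Lcat at -0.59 ± 0.14 (adjusted p = 0.023), against a background of 0.673% lower and 0.346% higher. Against shSCR/L-G6pc+/+ livers 4 passed, Tm7sf2, Msmo1 and Lcat lower and Abcg5 higher, against 1.4% lower and 1.68% higher of all genes. Between genotypes under shChREBP Insig2 alone passed, against 3.48% lower and 5.3% higher. Leaving the 4 out also lowers the number of libraries. Abcg5 and Abcg8 were at 0.73 ± 0.21 and 0.91 ± 0.28 for shChREBP in L-G6pc-/- livers (adjusted p = 0.1 and 0.119), and Tm7sf2, Scap and Stard4 at -0.68 ± 0.20, -0.40 ± 0.14 and -0.54 ± 0.16 (adjusted p = 0.0892, 0.175 and 0.103). Between genotypes under shChREBP, Tm7sf2 was at -0.50 ± 0.20 and Lcat at -0.26 ± 0.14 without the 4 (adjusted p = 0.104 and 0.24).

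Some calls rested on single libraries. For shChREBP in L-G6pc+/+ livers Hmgcs1 did not pass without s2, s11 or s15 (log2 fold change of -0.50 to -0.76 and adjusted p up to 0.0885 over the 16 fits that leave out 1 library), and Fdft1 did not pass in 7 of these fits (adjusted p up to 0.085). In L-G6pc-/- livers Abcg5 did not pass without s17 (0.57, adjusted p = 0.0508) and Abcg8 did not in 9 of 17 fits (adjusted p up to 0.0934). Under shChREBP the higher Cyp51 in L-G6pc-/- livers was not called in 10 of 17 fits (adjusted p up to 0.0917) and the lower Lcat in 6 (adjusted p up to 0.104). Against shSCR/L-G6pc+/+ livers Pmvk, Fdps, Fdft1 and Insig1 were not called in 12, 7, 11 and 9 of 17 fits (adjusted p up to 0.103, 0.083, 0.133 and 0.115), and Stard4 in 3, those without s6, s29 or s30 (adjusted p up to 0.0548).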

How the data were processed

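Per the labels and the methods of the study, the authors used HISAT, SAMtools and HTSeq-count with GRCm38 and deposited raw counts of reads per gene. Versions and strand setting are not given in the sources used here. The authors also deposited a signal table made with limma's voom, in linear values with 0.5 added to each count before scaling by library, whose log2 served as an alternative.

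Counts were fitted in R 4.3.3 with edgeR 4.0.16: filterByExpr (minimum count 10, minimum total 15), TMM scaling, and the quasi-likelihood test over all 33 libraries in 4 groups, two-sided, with Benjamini-Hochberg adjustment over 10179 genes and a threshold of 0.05. CPM are TMM-scaled. Alternatives used other scalings, filters, DESeq2 1.42.0, limma 3.58.1 and fewer libraries. The test was checked on simulated counts. All 30 genes are accounted for, and those that passed in at least 1 comparison, with those of the list of 38 that did, are named, except for a gene of that list that is not reported here. Members and lists were chosen with earlier results of these data known. Exon overlaps are from GENCODE M21.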

Additional observations from a re-analysis of the deposited data

Results flagged for a closer look

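In 12 of 116 combinations of gene and group, the highest library lay far from the others (its gap to the nearest exceeded Dixon's critical share of the group's range). For normally distributed values chance would flag about 1 in 20 such combinations. The CPM were not log-transformed, their distribution was not tested and the genes are not independent, so the 12 are not shown to exceed chance. Library s12 of shChREBP/L-G6pc+/+ gave 6 of the 12. There Fdft1 was at 51.6 CPM (next highest 34.3), Sqle at 150 CPM (79.9), Sc5d at 1160 CPM (727), Srebf2 at 152 CPM (117), Stard4 at 140 CPM (95.8) and Abca1 at 128 CPM (101). Library s19 of shSCR/L-G6pc-/- gave Mvd at 177 CPM (88.2) and Sqle at 124 CPM (78.4). In the same group Tm7sf2 was at 58.4 CPM in s24 (44.2) and Scap at 141 CPM in s23 (99.4). Lss was at 17.1 CPM in s31 of shChREBP/L-G6pc-/- (11.1), and Abcg5 at 88.2 CPM in s8 of shSCR/L-G6pc+/+ (56.7), the library that was the lowest of its group for 14 of 17 synthesis enzymes. Without s12, 9 genes in place of 6 passed for shChREBP in L-G6pc+/+ livers.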

How the results depend on the processing

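Of 33 called values, none reversed, 11 passed under every alternative run and 22 missed the threshold under at least 1. The 11 were Msmo1 for G6pc deficiency under shSCR, Insig2 for G6pc deficiency under shChREBP, Lcat for shChREBP in L-G6pc-/- livers, Cyp51, Ebp, Sc5d and Insig2 for shChREBP in L-G6pc+/+ livers, and Tm7sf2, Msmo1, Lcat and Abcg5 between shChREBP/L-G6pc-/- and shSCR/L-G6pc+/+ livers. Of 141 values not called, 14 passed under some alternative and 34 changed sign without being called.

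For G6pc deficiency under shSCR, 2 genes in place of 1 passed with library size only, with a minimum count of 30, with DESeq2 and with limma-voom, the added gene being Scarb1 (lower). Without s29, s30, s32 and s33, 1 gene in place of 6 passed for G6pc deficiency under shChREBP, 1 in place of 6 for shChREBP in L-G6pc-/- livers, and 4 in place of 14 between shChREBP/L-G6pc-/- and shSCR/L-G6pc+/+ livers. For the difference of shChREBP effects between genotypes, 1 gene in place of 0 passed with DESeq2. The cause of these moves was not tested. Leaving out each library in turn gave 1 to 2 genes for G6pc deficiency under shSCR (2 without s6, s19, s21 or s24), 4 to 6 under shChREBP, 5 to 7 for shChREBP in L-G6pc-/- livers, 4 to 9 in L-G6pc+/+ livers (4 without s2, s11 or s15), 9 to 15 between shChREBP/L-G6pc-/- and shSCR/L-G6pc+/+ livers (9 without s6 or s30) and 0 for the difference between genotypes. Scaling by library size only moved the median of all genes by up to 0.11 on the log2 scale, for shChREBP in L-G6pc-/- livers, and the share of higher genes among all called to 75.8%, against 44% with TMM. That share was 74% against 55.6% for G6pc deficiency under shChREBP, 57.6% against 68.1% under shSCR, 68.2% against 51.9% between shChREBP/L-G6pc-/- and shSCR/L-G6pc+/+ livers and 90.9% against 75% for the difference. The sterol genes then split into 3 higher and 4 lower for shChREBP in L-G6pc-/- livers, 3 and 3 for G6pc deficiency under shChREBP, and 2 and 10 between shChREBP/L-G6pc-/- and shSCR/L-G6pc+/+ livers. Fitting the groups of the comparison alone gives no value for the difference between genotypes. No paired analysis was possible because the groups share no replicate numbers. Low counts limit Idi1, Lss and Soat2.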
